A study of Mus musculus with 6 samples.

Results

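The MYC, MAX and MXD network is a family of transcription factors, and 10 of its genes were followed here in the brown adipose tissue (BAT) of mice lacking Cars2 in fat. The genes were Myc, Mycn, Max, Mxd1, Mxd3, Mxd4, Mxi1, Mnt, Mlx and Mga, and each matched 1 of the 35976 rows of the deposited count table by its name. The family was chosen by its names with the differences between both groups of these same libraries already known. The differences of the 10 genes are therefore given as a description. Where a member is said to be past the threshold that was applied to all genes, this places it among them and is not a test of it. Adjusted p-values are printed only for genes around the network, whose lists were also drawn up with earlier results known, so they are no independent support.

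BAT was collected from wild-type littermates (WT, 3 libraries) and from CarS2-AKO mice (AKO, 3 libraries) after 4 h at 4 °C, and its mRNA was sequenced. The study's text calls controls of AKO mice wild-type (Flox) and other figures name them Flox, whereas the sequencing legend says only controls. The labels of these libraries say WT, so whether they carry floxed alleles without Cre is not stated for them. AKO mice carry Cars2 alleles flanked by loxP sites and Cre recombinase under the Adiponectin promoter, which is active in the adipocytes of all fat depots, so the vessels, immune cells and other cells of BAT keep the gene. Cars2 encodes the mitochondrial cysteinyl-tRNA synthetase, and its log2 fold change was −1.64 in these libraries. The legend of the study's sequencing figure gives 3 AKO mice and 3 controls. The study's methods give a range of adult ages over all experiments, and male mice for the feeding experiments. The labels add neither age nor sex for these libraries, and p-values measure the spread between them. Libraries held 6540619 to 8461685 reads, and mitochondrially encoded mRNAs took 20.1% to 20.6% of them in WT and 23.0% to 28.6% in AKO. No group kept out of the cold is part of the comparison.

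Proteins of this network share a basic helix-loop-helix leucine zipper, through which they pair with each other and read the E-box, the DNA letters CACGTG. MAX is the common partner: paired with MYC it activates genes of growth and metabolism, and paired with MXD proteins, MNT or MGA it represses genes at the same sites. MLX is a MAX-like partner of the glucose-responsive Mondo proteins, and it also pairs with MNT and some MXD proteins. MYC is known as a brake on adipocyte differentiation in cell culture, whereas MXD genes are typical of cells that stop dividing and differentiate.

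Copies of the E-box were also found near annotated starts of members of the network themselves. Promoter windows of 300 bases (250 before to 50 after the annotated start) from RefSeq on GRCm38.p6 were found for 9 of the 10 genes, all but Myc. An E-box lay in those of Mxd4, Mnt, Mlx and Max, so in 4 of 9. Among all 32851 mouse windows of this length 7.15% held one, and among the 9818 genes tested here that had a window 11.8% did. CACGTG reads the same on both strands, so 1 search covers both. The 4 sites are shown with 12 bases on each side, 5′ to 3′ on the strand of the gene. The E-box is in capitals, because it is the sequence that activating and repressing dimers of MAX share.
Mxd4, chr5:34187912-34187941, minus strand: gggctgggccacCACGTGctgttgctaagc
Mnt, chr11:74830789-74830818, plus strand: ccccacccaagcCACGTGtgcgcgcgcggt
Mlx, chr11:101087238-101087267, plus strand: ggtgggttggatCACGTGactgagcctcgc
Max, chr12:76962234-76962263, minus strand: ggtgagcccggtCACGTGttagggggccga
The E-box began 219 bases before the start that its window was built on in Mxd4, 123 in Mnt, 40 in Mlx and 3 in Max, where it spans that start. Except in Mxd4, this start lies inside the RefSeq gene span given below. Measured against the span, the E-box of Mlx began 543 bases and that of Max 72 bases inside the gene, and that of Mnt ended on its first base. None of the sites lay in an exon of GENCODE's basic set. A match is a stretch of letters and not a measured binding site.

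After 4 h of cold, the largest differences in the network were in 2 members. Myc mRNA was 18.1-fold higher in AKO BAT, and Mlx mRNA was at 0.484 of its WT level. Max, the partner that most of the other members need, was nearly level. Levels are given as CPM, the read count of a gene relative to the library total after scaling by the trimmed mean of M-values (TMM). Each difference is the log2 ratio of AKO to WT, with a standard error (SE), from edgeR's quasi-likelihood fit over all genes.

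**Figure D1:**
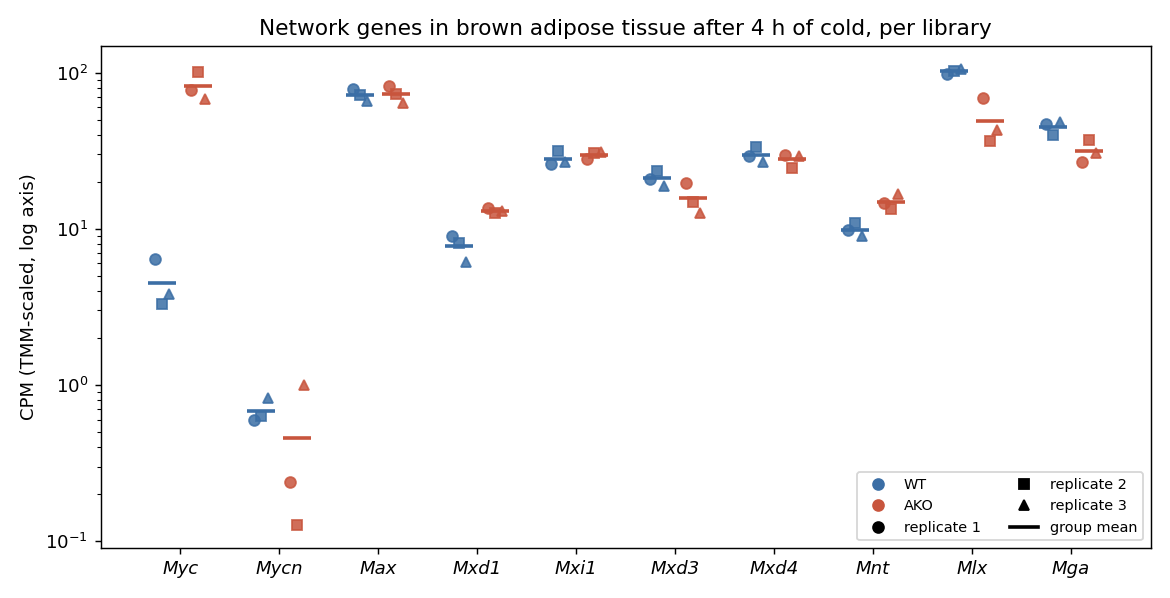
CPM (TMM-scaled, log axis) of the 10 network genes in each of 6 libraries. Points are libraries, shapes are replicate numbers, and lines are group means. Myc lies between 3.31 and 6.36 CPM in WT and between 68.0 and 100.5 CPM in AKO, while Mycn, Max, Mxi1, Mxd4 and Mxd3 overlap between the groups.

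Myc (chromosome 15, 61985341 to 61990361, GRCm38) encodes the growth-promoting factor that gives the network its name. Its level was 6.36, 3.31 and 3.82 CPM in WT replicates 1 to 3, from 53, 26 and 28 reads. In AKO replicates 1 to 3 it was 77.5, 100.5 and 68.0 CPM, from 646, 791 and 478 reads. Every AKO library was therefore above every WT library, and the lowest AKO value was more than 10 times the highest WT value. WT averaged 4.50 ± 1.63 CPM and AKO 82.0 ± 16.7 CPM (SD, n = 3), with a log2 fold change of 4.17 ± 0.23 (SE). Among 13007 genes tested, Myc had the 24th highest log2 fold change. Leaving out any 1 library moved this value only between 3.99 and 4.52.

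Mycn (chromosome 12, 12936093 to 12941836), the MYC gene best known from the embryo and the nervous system, was close to the limit of detection. Its reads numbered 5, 5 and 6 in WT and 2, 1 and 7 in AKO, and the groups overlapped. At 3 reads per library the floor lay between 0.360 and 0.427 CPM, and AKO replicates 1 and 2 were under it. Mycn did not pass the low-count filter, so it has no fold change here, and a difference was not detectable at this depth.

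Max (chromosome 12, 76937269 to 76962323), the shared dimer partner, was at 78.7, 71.7 and 65.8 CPM in WT and at 82.7, 73.2 and 64.1 CPM in AKO. The libraries of both groups were intermixed. The log2 fold change was 0.03 ± 0.13 (SE). It was positive under each scaling tried, and negative with no low-count filter (−0.01) and without WT replicate 3 (−0.05) or AKO replicate 1 (−0.07), so no direction is given for Max.

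The MXD genes encode repressors that take MAX and bring in SIN3 and histone deacetylases. Mxd1 (chromosome 6, 86647044 to 86669234), first named Mad, was at 8.99, 8.15 and 6.15 CPM in WT and at 13.7, 12.6 and 13.0 CPM in AKO. All AKO libraries were above all WT libraries, and the log2 fold change was 0.75 ± 0.19 (SE). The other MXD genes showed no separation of this kind.

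Mxd3 (chromosome 13, 55325170 to 55329900), which unlike the other MXD genes is known from proliferating progenitors, was at 20.9, 23.4 and 18.7 CPM in WT and at 19.7, 14.7 and 12.5 CPM in AKO. AKO replicate 1 lay within the WT range, and the log2 fold change was −0.42 ± 0.18 (SE). Without AKO replicate 1 it was −0.62 and went past the threshold used for calls, as it also did with no low-count filter (−0.46). Of the exonic length of Mxd3, 7.91% is shared with Prelid1 on the opposite strand. Prelid1 was at 88.7, 97.2 and 86.6 CPM in WT and at 93.8, 73.4 and 70.3 CPM in AKO, and without a stated strand setting its reads cannot be told from those of Mxd3 in the shared stretch.

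Mxd4 (chromosome 5, 34176580 to 34187710) was at 29.3, 33.4 and 26.8 CPM in WT and at 29.5, 24.5 and 29.3 CPM in AKO, a log2 fold change of −0.10 ± 0.14 (SE). Mxi1 (chromosome 19, 53310128 to 53373293), also called Mad2, was at 26.0, 31.3 and 26.6 CPM in WT and at 27.8, 30.6 and 31.2 CPM in AKO, a log2 fold change of 0.09 ± 0.14 (SE). Both genes, which are typical of resting and differentiated cells, overlapped between the groups. Per kilobase of exon, the 4 MXD genes together summed to 29.1, 32.7 and 26.3 CPM per kb in WT and to 29.5, 24.7 and 24.5 CPM per kb in AKO. AKO replicate 1 lay within the WT range of this per kb sum and the other AKO libraries below it. Summed as CPM without regard to length, the same genes lay at 78.3 to 96.3 in WT and at 82.4 to 90.7 in AKO, so the groups were intermixed. Exons of Mxd4 and Mxi1 share 13.2% and 2.91% of their length with predicted genes on the opposite strand.

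Mnt (chromosome 11, 74830806 to 74845725), a broadly expressed MYC antagonist that pairs with MAX or MLX, was at 9.83, 10.8 and 9.01 CPM in WT and at 14.6, 13.5 and 16.7 CPM in AKO. The groups were apart, with AKO higher, and the log2 fold change was 0.59 ± 0.17 (SE). Without WT replicate 3 (0.52) or AKO replicate 3 (0.51) it was no longer past the threshold.

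Mlx (chromosome 11, 101086707 to 101092207), the partner of the Mondo proteins, went the other way. Its level was 98.2, 102.4 and 105.9 CPM in WT and 68.6, 36.3 and 43.0 CPM in AKO. Each AKO library was below each WT library, and AKO replicate 1 stood above the other AKO libraries. WT averaged 102.1 ± 3.83 CPM and AKO 49.3 ± 17.1 CPM (SD, n = 3), and the log2 fold change was −1.05 ± 0.19 (SE). Without AKO replicate 1 it was −1.36. Of the exonic length of Mlx, 19.4% is shared with Psmc3ip on the opposite strand, a gene at 1.56 to 2.87 CPM in WT and 0.381 to 1.56 CPM in AKO. Without a stated strand setting, how reads in the shared stretch were counted is not known.

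Mga (chromosome 2, 119872503 to 119970129) encodes a large MAX partner that also carries a T-box and belongs to a Polycomb repressive complex, PRC1.6. Its level was 46.8, 40.1 and 48.2 CPM in WT and 26.6, 37.0 and 30.5 CPM in AKO. The groups were apart, AKO being lower, with a narrow gap between WT replicate 2 and AKO replicate 2. The log2 fold change was −0.52 ± 0.15 (SE), and without WT replicate 1 (−0.49) or WT replicate 3 (−0.48) it was no longer past the threshold.

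**Figure D2:**
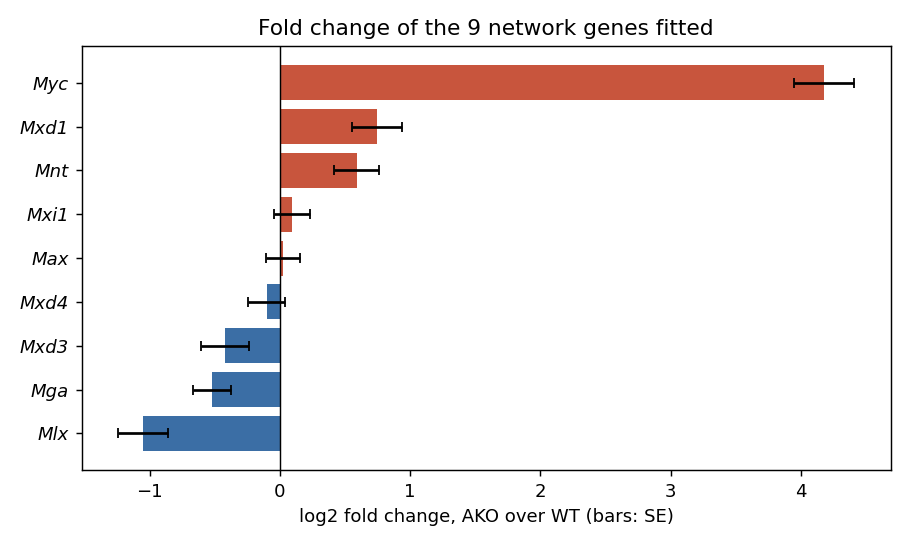
Log2 fold change, AKO over WT, of the 9 network genes that entered the fit, with bars from 0 and error lines of 1 SE on each side. Myc reaches 4.17 and Mlx −1.05, and the other 7 genes lie between −0.52 and 0.75.

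Among the 9 members fitted, Myc, Mxd1 and Mnt were past the threshold as higher (edgeR adjusted p under 0.05) and Mlx and Mga as lower. Over all 13007 genes tested 37.6% were past it, with 20.2% higher and 17.5% lower. The same 5 members had groups that did not overlap, which held for 25.7% of all genes tested with AKO higher and for 24.4% with AKO lower. The median log2 fold change of the 9 members was 0.03, against 0.01 for all genes tested. Because the family was selected on this contrast, nothing is read from these counts.

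Levels of different genes were compared only per kilobase (kb) of exonic length in GENCODE's basic set, as CPM per kb. In WT the order of means ran from Mlx (51.4), Max (36.8), Mxd3 (15.8), Mxd4 (7.68), Mxi1 (4.21), Mga (3.23) and Mnt (2.15) to Myc (1.84), Mxd1 (1.66) and Mycn (0.244). Neighbours in this order were apart in all WT libraries except Mnt and Myc, and Myc and Mxd1, whose ranges overlapped. In AKO the order was Max (37.4), Myc (33.5), Mlx (24.8), Mxd3 (11.8), Mxd4 (7.16), Mxi1 (4.49), Mnt (3.25), Mxd1 (2.80), Mga (2.25) and Mycn (0.162). The ranges of Max and Myc overlapped there, as did those of Myc and Mlx, and the lower places were apart. Myc thus stood eighth of the 10 genes in WT and shared the top of the order in AKO.

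Within a library, the ratio of Myc to Max per kb was 0.0646, 0.0370 and 0.0465 in WT and 0.750, 1.10 and 0.850 in AKO. Against the 4 MXD genes together, Myc per kb was at 0.0893, 0.0414 and 0.0594 in WT and at 1.07, 1.66 and 1.14 in AKO. Myc mRNA was thus scarce beside Max and beside the summed MXD genes in all WT libraries. In AKO libraries it was at 0.750 to 1.66 of these levels. Taken singly, Mnt and Mxd1 overlapped Myc in WT. In AKO the Myc mean of 33.5 CPM per kb was above those of Mxd3 (11.8), Mnt (3.25), Mxd1 (2.80) and Mga (2.25). The ratio of Mlx to Max ran the other way, at 1.23, 1.41 and 1.58 in WT and at 0.818, 0.489 and 0.661 in AKO. AKO replicate 2 had the highest Myc and the lowest Mlx ratio. Myc made up between 1.06% and 2.05% of the per kb sum of all 10 genes in WT and between 22.1% and 32.3% in AKO, while that sum was 120.5 to 127.6 CPM per kb in WT and 112.8 to 143.1 in AKO.

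**Figure D3:**
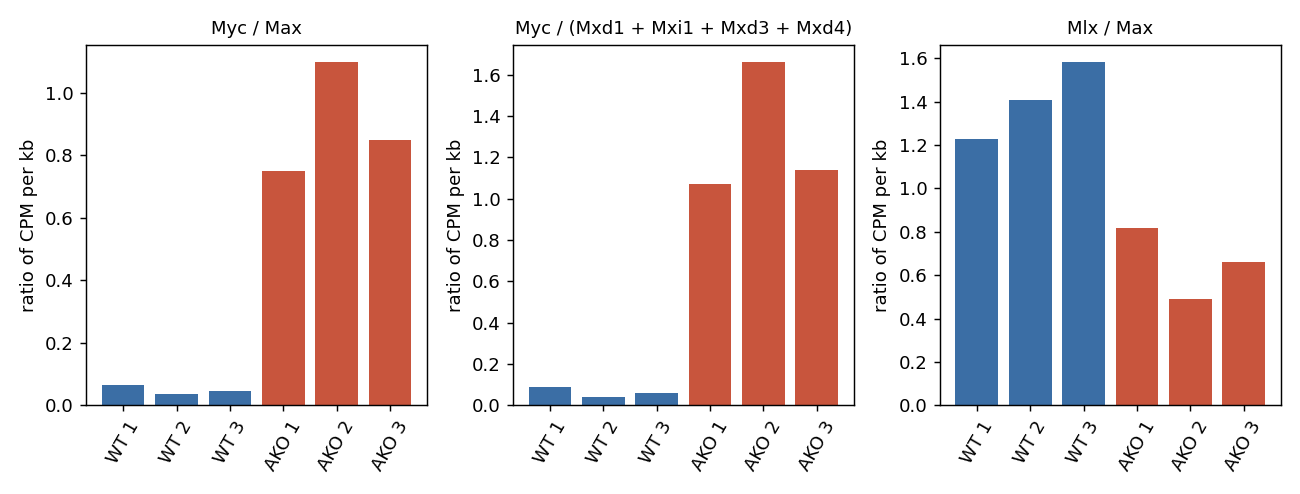
Ratios of CPM per kb within each library, for Myc to Max, Myc to the sum of Mxd1, Mxi1, Mxd3 and Mxd4, and Mlx to Max (bars from 0, 1 bar per library). Myc to Max lies at 0.0646 or less in WT and at 0.750 or more in AKO, and Mlx to Max at 1.23 or more in WT and 0.818 or less in AKO.

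BAT holds many cell types, and in bulk tissue fewer cells of a type and less RNA per cell cannot be told apart. Marker genes of other cells differed alongside Myc. Of 12 macrophage markers 11 rose, and their summed level was 240.3 to 297 CPM in WT and 874 to 1208 CPM in AKO. Of 12 proliferation markers 9 could be tested and 7 rose, with sums of 6.24 to 10.6 CPM in WT and 27.8 to 38.4 CPM in AKO. Fibroblast and progenitor markers summed to 413 to 569.8 CPM in WT and 973 to 1138 CPM in AKO (6 of 8 rose), and skeletal muscle markers to 63.0 to 443 CPM and 947 to 1933 CPM (10 of 10 rose). The 10 adipocyte markers summed to 35698 to 39134 CPM in WT and 16476 to 22705 CPM in AKO, with 7 lower and 1 higher. Endothelial markers lay at 876 to 962 CPM in WT and 881 to 917 CPM in AKO (2 rose, 2 fell, 4 did not pass). Markers of T and NK cells summed to 2.16 to 6.48 CPM in WT and 7.62 to 17.2 CPM in AKO, so these sums did not overlap. Both that could be tested, Cd4 and Cd2, rose. The others found, Cd3e, Cd3d, Cd3g, Cd8a, Nkg7, Klrb1c and Lck, were too low to test, and each overlapped between the groups. B cell markers summed to at most 13.5 CPM and neutrophil markers to at most 10.8 CPM in any library, and Ly6g, which defines neutrophils, was at 0 in all 6. Mural markers lay at 336.5 to 390.1 CPM in WT and 387.5 to 514 CPM in AKO (1 of 6 rose), and Schwann cell markers at 74.9 to 104 CPM and 43.6 to 72.8 CPM (1 of 5 fell). The part of these cells in the differences of Myc, Mxd1, Mnt, Mlx and Mga was not tested.

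The remaining genes of the pathway were taken from 6 lists and tested in the fit over all genes, and their counts stand beside the 20.2% higher and 17.5% lower over all genes tested and an overall median of 0.01. Closest to the network are the other MYC gene, the Mondo genes and further factors with a helix-loop-helix zipper that read E-boxes. Of these factors 12 could be tested. Both that rose, Mitf and Srebf1, are described next, the other 10 missed the threshold, and the median log2 fold change was −0.03. The number that fell was 0 with edgeR and with DESeq2 and 1 with limma-voom, against 2 at an unadjusted p under 0.05 in edgeR, and it was 2 without AKO replicate 1. The number that rose was 4 with library totals only, with upper-quartile scaling or without mitochondrially encoded genes. Mitf, a regulator of melanocytes, osteoclasts and lysosomal genes, went from 2.04, 2.16 and 1.50 CPM in WT to 5.88, 10.4 and 12.5 CPM in AKO, so it rose by 2.31 ± 0.32 on the log2 scale (SE, edgeR adjusted p = 0.000157). Srebf1, which drives lipid synthesis genes, rose by 0.88 ± 0.14 (SE, edgeR adjusted p = 0.000540).

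Neither of the Mondo genes, whose products pair with MLX, passed the test. Mlxip, which encodes MondoA, was at 48.0, 54.5 and 53.5 CPM in WT and at 52.4, 48.1 and 46.3 CPM in AKO (log2 fold change −0.09 ± 0.12 SE, edgeR adjusted p = 0.610). Mlxipl, which encodes the carbohydrate-responsive factor ChREBP, was at 113.6, 154.6 and 147.9 CPM in WT and at 174.3, 168.8 and 192.3 CPM in AKO. The groups were apart, AKO being higher, and the log2 fold change of 0.36 ± 0.14 (SE) narrowly missed the threshold (edgeR adjusted p = 0.0550). It passed with upper-quartile scaling (0.42), library totals only (0.46), limma-voom (0.37), a minimum of 5 CPM (0.42) and without mitochondrially encoded genes (0.40), but not with RLE factors (0.36), DESeq2 (0.36) or no low-count filter (0.33), nor with any library left out. Without WT replicate 1 it was 0.24 and without AKO replicate 3 it was 0.31. Mycl, the remaining MYC gene, was at 0.956 to 3.36 CPM in WT and at 1.85 to 4.57 CPM in AKO, with overlapping groups.

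Genes that MLX and the Mondo proteins are known to activate moved in either direction. Among 16 tested there were 5 increases, 3 decreases and 8 genes past neither limit, and their median was 0.21. Without WT replicate 1 there were 3 increases and 5 decreases, without AKO replicate 1 there were 5 decreases, and with no low-count filter there were 6. Txnip, a brake on glucose uptake and the best known target, was at 1065, 1122 and 901 CPM in WT and at 1776, 2093 and 1647 CPM in AKO (0.84 ± 0.14 SE, edgeR adjusted p = 0.000739). Arrdc4, an arrestin related to Txnip, rose by 1.02 ± 0.23 (SE), as did the fructose kinase gene Khk (0.63) and the lipogenic Mid1ip1 (0.55), and the glucose transporter gene Slc2a4 fell, at −0.50. The last 4 genes were named after their values were seen. Among the lipogenic targets Acly, which makes cytosolic acetyl-CoA, rose by 1.15 ± 0.17 (SE), whereas the fatty acid elongase Elovl6 fell, at −1.48 ± 0.14 (SE), and so did Gpd1, the glycerol phosphate dehydrogenase, at −0.81 ± 0.17 (SE). Fasn and Acaca, at −0.40 and −0.32, did not pass.

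Of the genes that MYC is known to induce, 56 could be tested, with 18 increases, 8 decreases and 30 genes that missed the threshold. Their median log2 fold change was 0.14, and 36 of the 56 values were above 0. Slc7a5, a transporter of large neutral amino acids, was at 1.44, 1.53 and 1.50 CPM in WT and at 13.9, 7.88 and 13.5 CPM in AKO (2.97 ± 0.29 SE, edgeR adjusted p = 1.62e-05). Mthfd2, a mitochondrial folate enzyme, rose by 2.27 ± 0.28 (SE, edgeR adjusted p = 7.88e-05). Both genes are also known targets of ATF4, the factor of the integrated stress response, and the cause of their increases was not tested.

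Cell cycle and replication genes among the MYC targets, grouped by role after the values were seen, moved in either direction. Of 6 that could be tested, 3 rose, 2 fell and 1 did not pass, and the median was 0.64. Ccnd2, which encodes cyclin D2, was at 26.6, 30.2 and 30.9 CPM in WT and at 76.1, 67.2 and 67.2 CPM in AKO (1.26 ± 0.13 SE, edgeR adjusted p = 1.80e-05). Mcm5, part of the replicative helicase, rose by 2.21 ± 0.39 (SE), from 0.764 to 1.23 CPM in WT to 3.13 to 7.08 CPM in AKO. By contrast Cdc25a, a phosphatase that lets cells enter S phase, was at 15.5 to 22.5 CPM in WT and 5.98 to 13.1 CPM in AKO (−0.98 ± 0.25 SE), and E2f2 fell as well (−1.11 ± 0.23 SE). The choice of Mcm4, Cdc25a and E2f2 was made with their values in view. Cdk4, a cyclin D partner, stayed at 0.02.

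The nucleolus, where ribosomes are assembled, is the classic site of MYC action. Among 24 such targets, grouped by role after the values were seen, 9 rose, 2 fell and 13 did neither, and the median was 0.34. Nop58, a core protein of small nucleolar RNPs, was at 21.6, 15.9 and 19.0 CPM in WT and at 29.9, 38.4 and 34.9 CPM in AKO (0.87 ± 0.16 SE). Nucleolin (Ncl) rose by 0.57 ± 0.15 (SE), while Nop2 and Bop1, which also act in assembly of the large subunit, fell, at −0.48 and −0.47. The increases in this group were below 2-fold. Of 9 genes of polyamine and nucleotide synthesis, 2 rose (Srm, 0.67, and Gart, 0.37) and 1 fell (Nme1, −0.41), and Odc1, the rate-limiting enzyme of polyamine synthesis, was at −0.16 and did not pass. Of 4 targets grouped as mitochondrial 2 fell, Phb (−0.40) and Tfam (−0.39), and the others did not pass. That group leaves out Mthfd2, named above as mitochondrial, which was grouped by its metabolism. Of 6 genes of serine, folate and glucose metabolism, 2 rose (Mthfd2, 2.27, and Shmt2, 0.82), 1 fell (Ldha, −0.49) and 3 did not pass. Of 3 genes of uptake at the cell surface 2 rose and 1 did not pass. None of 4 genes of translation initiation and nuclear transport passed, and their median was −0.11. Apart from Mthfd2, the genes named in this paragraph were picked with their values in view.

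**Figure D4:**
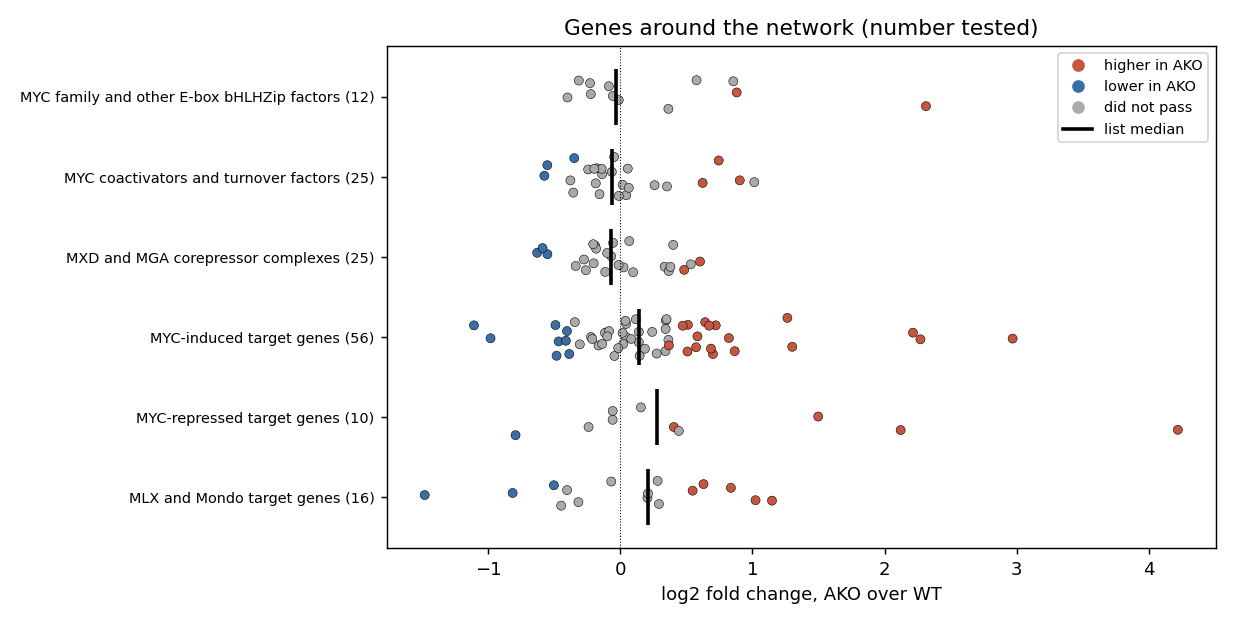
Log2 fold change, AKO over WT, of each gene tested in 6 lists around the network (points, with the number tested in parentheses), with the list median as a line. Red points passed as higher and blue points as lower, and grey points did not pass. The 56 MYC-induced targets spread from −1.11 to 2.97 with a median of 0.14.

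The count of 8 lower MYC-induced targets depended on single libraries, and lay between 2 and 9 when a library was left out (2 without WT replicate 3, and 3 without WT replicate 1, WT replicate 2, AKO replicate 2 or AKO replicate 3). With library totals as the only scaling it was 3. The count of 18 higher ones lay between 13 and 18 when a library was left out and between 16 and 23 under the alternatives that keep all libraries. E-boxes stood in the promoter windows of 14 of the 47 MYC-induced targets that had one, or 29.8%.

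Genes that MYC is known to repress were not lower as a list. Among 10 tested the median was 0.28, and 4 rose, 1 fell and 5 did neither. Gadd45a, a growth arrest and stress gene, was at 2.16, 2.16 and 1.23 CPM in WT and at 28.8, 47.5 and 28.8 CPM in AKO, so it rose by 4.22 ± 0.28 on the log2 scale (SE, edgeR adjusted p = 1.51e-06), which is close to that of Myc itself. Gadd45b rose by 2.12 ± 0.24 and the collagen gene Col1a2 by 1.50 ± 0.16 (SE). Cdkn1b, which encodes the cell cycle inhibitor p27, also rose (0.41), whereas Cdkn1a did not pass (−0.06). Both were named after their values were seen. What drove the increases in this list was not tested. Cdkn2c, an inhibitor of CDK4 and CDK6, was the 1 that fell (−0.79 ± 0.23 SE), and it lost its call without WT replicate 2 (−0.70), WT replicate 3 (−0.73), AKO replicate 1 (−0.63) or AKO replicate 3 (−0.63).

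Cofactors of the network came next. Among 25 coactivators and turnover factors of MYC, the median was −0.06, and 19 passed in neither direction, beside 3 that rose and 3 that fell. Smarcb1, a subunit of the SWI/SNF remodelling complex, rose by 0.90 ± 0.14 (SE, edgeR adjusted p = 0.000373), Usp22, a histone deubiquitinase, by 0.75 ± 0.13, and Ruvbl1, an ATPase of chromatin complexes, by 0.62 ± 0.16 (SE). Those that fell were Ppp2r5a (−0.55 ± 0.13 SE), a regulatory subunit of the phosphatase that acts on MYC, and 2 genes named after their values were seen. These were Fbxw7 (−0.57 ± 0.19 SE, edgeR adjusted p = 0.0285) and Huwe1 (−0.35 ± 0.12 SE, edgeR adjusted p = 0.0319), whose products attach ubiquitin to MYC. The count of lower genes was 1 with upper-quartile scaling, library totals or a minimum of 5 CPM, and also without WT replicate 1 or WT replicate 3, and it was 5 with no low-count filter. The count of higher genes was 5 without AKO replicate 2.

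In the corepressor complexes of MXD proteins and MGA, the median was −0.07, and 20 of 25 genes passed in neither direction, beside 2 that rose and 3 that fell. E2f6 (−0.59 ± 0.14 SE, edgeR adjusted p = 0.00597) and Rnf2 (0.60 ± 0.16 SE, edgeR adjusted p = 0.00885), which both belong with MGA to PRC1.6, went opposite ways. Suds3 and Ing1, subunits of the SIN3 complex, were lower, at −0.55 ± 0.14 and −0.63 ± 0.19 (SE). Sap130, of the same complex and named after its value was seen, rose by 0.48. Suds3 lost its call without WT replicate 2 (−0.46), and Ing1 without WT replicate 1 (−0.47), WT replicate 3 (−0.59) or AKO replicate 3 (−0.50). Without AKO replicate 1 the count of higher genes in this list was 6, and it was 1 without WT replicate 2 or WT replicate 3. Sin3a and Sin3b, the scaffolds themselves, were at 0.34 and −0.34 and did not pass.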

How the data were processed

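RNA of 6 BAT libraries had been enriched for poly(A) and sequenced. The deposited table holds whole-number counts per gene with no normalization, made by the authors. The study's methods name STAR and HTSeq, whereas the submitters' processing notes list RSEM 1.3.1, DESeq2 1.4.5, Bowtie2 and mm10 with no role for each. For strand, annotation release and multiply matching reads, no setting is given in these sources. Totals ranged from 6540619 to 8461685 reads.

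Of 22147 genes with a read, filterByExpr kept 13007. edgeR 4.0.16 in R 4.3.3 was run with TMM factors (0.930 to 1.08), glmQLFit and glmQLFTest, genotype as the only term and Benjamini-Hochberg adjustment over all genes, and an adjusted p under 0.05 was called. SE was the log2 fold change divided by the square root of F. On simulated counts of the AKO and WT comparison (12819 genes), recovery was 81.4% for a log2 change of 1 and 99% for a change of 2. Of the calls 11% were false, which is above the 0.05 aimed for. Only a small share of genes was changed in the simulation, whereas 37.6% were called in the data. Its false share therefore does not estimate that of the calls made here.

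Members and lists were chosen with earlier results of these data known. Of the listed genes, Cip2a was matched by an older symbol and Trbc2 was not found. Named genes are all members, Mycl, Mlxip, Mlxipl, the 4 called genes of lowest p per pathway list (or the 3 of highest level where fewer than 2 were called), and others marked as picked after their values were seen; not every gene the rule names is reported. Gene positions are RefSeq's on GRCm38.p6, which corresponds to mm10, and exonic lengths come from GENCODE. Alternatives were RLE or upper-quartile factors, library totals only, DESeq2 1.42.0, limma-voom (limma 3.58.1), a minimum mean of 5 CPM, no low-count filter, removal of mitochondrially encoded genes, a replicate block and leaving out each library. Of the same-numbered libraries' deviations from group means, correlations were −0.02, 0.01 and 0.17 over genes, so numbers were not taken as pairs.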

Additional observations from a re-analysis of the deposited data

How the results depend on the processing

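The log2 fold changes of Myc (3.99 to 4.52), Mxd1 (0.60 to 0.87), Mnt (0.51 to 0.69), Mlx (−1.36 to −0.87), Mga (−0.66 to −0.41) and Mxd3 (−0.62 to −0.28) kept their sign in all 15 alternatives. Library totals as the only scaling moved the median of all genes to 0.10, and 65.2% of calls were then higher in place of 53.6%. With the replicate block, 3 members were past the threshold as higher and 2 as lower, as without it, and of the genes reported Mlxipl alone gained a call (0.37). List counts that moved by over 1.5 times were small. Higher E-box factors numbered 4 with upper-quartile factors, library totals or no mitochondrially encoded genes, and lower ones 1 with RLE, limma-voom or no filter and 0 to 2 with a library left out. Lower coactivators numbered 1 with upper-quartile factors, library totals or a 5 CPM minimum, 5 with no filter and 1 to 3 with a library left out, and higher ones 3 to 5. With a library left out, higher corepressor genes numbered 1 to 6, lower MYC-induced targets 2 to 9 (3 with library totals), lower MYC-repressed targets 0 to 1, and higher and lower Mondo targets 3 to 5 and 2 to 5. Lower Mondo targets numbered 6 with no filter. The causes were not tested. With 3 libraries per group, and 26 to 53 reads of Myc in WT, the size of its fold change is uncertain. All alternatives reuse the libraries on which the family was chosen, so a kept sign is no independent support.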
